A study of Mus musculus with 4 samples.

Results

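The core autophagy genes were examined in B16F10 cells, a mouse melanoma line from the C57BL/6 strain, with and without knockdown of Lmna, the gene of the nuclear lamina proteins lamin A and lamin C. The set was taken by gene symbol: every symbol of the count table that begins with Atg and a digit, plus named members of the ULK1 and PI3-kinase complexes, the WIPI, LC3 and GABARAP families, the cargo receptors, Vmp1 and Epg5. It held 40 of the 24421 symbols in the table, and the rule used no expression value. Cells of both groups were grown in the same medium, transduced with lentivirus and kept under puromycin. The 2 shControl libraries came from cells with the pLKO.5-puro control vector, which the methods list as empty, and the 2 shLmna libraries came from cells with a short hairpin against Lmna, so carrying a hairpin and losing lamin A/C cannot be told apart in this comparison. A single hairpin sequence was used, and the labels leave unsaid whether libraries of the same group are separate cultures. The p-values therefore measure the spread between libraries, which may be technical.

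Autophagy is the route by which a cell wraps cytoplasm, organelles or protein aggregates in a double membrane, the autophagosome, and delivers them to lysosomes for breakdown. The ULK1 kinase complex starts the process, and a PI3-kinase complex around Beclin 1 marks the site with a lipid. ATG9 vesicles and the lipid transporter ATG2 feed the growing membrane, while 2 ubiquitin-like systems attach ATG12 to ATG5 and attach LC3 and GABARAP proteins to the membrane lipid. Cargo receptors then tether what is to be degraded. Much of this machinery is controlled after transcription, by phosphorylation, lipidation and turnover of the proteins themselves, so transcript levels describe the supply of parts and not the flux through the pathway.

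The libraries held 2494880 to 3808843 counts each, made by 3′ MARS-seq, which counts transcripts at their poly(A) end. Lmna itself fell from 797 ± 111 to 130.8 ± 0.0955 CPM (counts per 1000000 counts of the library, mean ± SD, n = 2 per group), a log2 fold change of -2.61 (standard error 0.142, adjusted p = 7.93e-06, edgeR quasi-likelihood test). All 7 melanocyte and melanoma markers were detected, with a summed level of 20117 to 20891 CPM in shControl and 21156 to 24602 CPM in shLmna, although Tyr, the gene of tyrosinase, had only 1 to 7 counts per library. Single markers differed in direction, with Pmel at 7574 and 6196 CPM in shControl and 8872 and 9457 in shLmna, and Sox10 at 1574 and 1851 against 843 and 1002. Of the 11 markers of other cell types, Ptprc, Cd3e, Cdh5 and Epcam were at 0 counts in all 4 libraries. Cd68 had 53 and 54 counts in shControl against 27 and 44 in shLmna, and Krt8 had 16 and 9 in shControl and 0 and 1 in shLmna. Summed over each list, leukocyte markers stood at 14.5 to 16.4 CPM in shControl and 10.7 to 12.0 in shLmna, fibroblast markers at 7.12 to 7.23 and 2.37 to 4.90, epithelial markers at 2.68 to 5.58 and 0 to 0.817, and endothelial markers at 0.619 to 1.07 and 0 to 0.272. Their part in the results below was not tested, and in such bulk libraries fewer cells of a type and less RNA per cell cannot be told apart.

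Of the 40 autophagy genes, 35 had enough counts to be tested and 5 did not (Rb1cc1, Ulk2, Atg2b, Atg9b and Atg4a). Only Optn, which encodes the cargo receptor optineurin, changed at an adjusted p under 0.05, and it rose 1.52-fold. One gene of 35 is 2.86%, against 15.2% of all 9150 genes tested in the same fit (9.74% lower and 5.48% higher). None of the 35 met the study's 3 limits together (adjusted p under 0.05, more than a 2-fold change and a mean normalized count over 5), which 7.64% of all tested genes met (5.88% lower and 1.76% higher). At an unadjusted p under 0.05 by the same edgeR test, 8 of the 35 stood out, or 22.9% against 30.1% of all genes. DESeq2 passed 0 of the 39 autophagy genes it fitted, against 7.71% of the 10448 genes with an adjusted p. Some of the 39 may lack an adjusted p, so these bases differ. With limma on the ComBat values of the study, 11 of 36 autophagy genes passed (Atg10, Atg101, Atg12, Atg16l2, Atg3, Calcoco1, Gabarap, Gabarapl2, Optn, Sqstm1 and Ulk2), against 36.3% of all. These shares are descriptions and were not tested against each other.

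The fold changes of the set were small and of both signs. The median log2 fold change of the 35 genes was -0.13, against -0.00107 over all tested genes, with 22 genes below 0 and 13 above. The most negative value was -0.99 and the most positive was 0.63. The median size, whatever the sign, was 0.30 on the log2 scale, against 0.29 over all genes. The groups did not overlap, with both shLmna libraries below or both above the 2 shControl libraries, for 23 of the 35 genes (15 lower and 8 higher). That was 65.7%, against 60.1% of all genes (30.6% lower and 29.5% higher). The 95% interval of the fold change lay within a 2-fold change in either direction for 29 of the 35 genes (82.9%), against 66.0% of all genes. Each of these 29 intervals thus held the ratio between these libraries to under 2-fold, gene by gene and not for the 29 jointly. For the other 6 (Atg10, Atg12, Atg14, Atg4d, Calcoco1 and Epg5) a larger change lay within the interval.

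**Figure D1:**
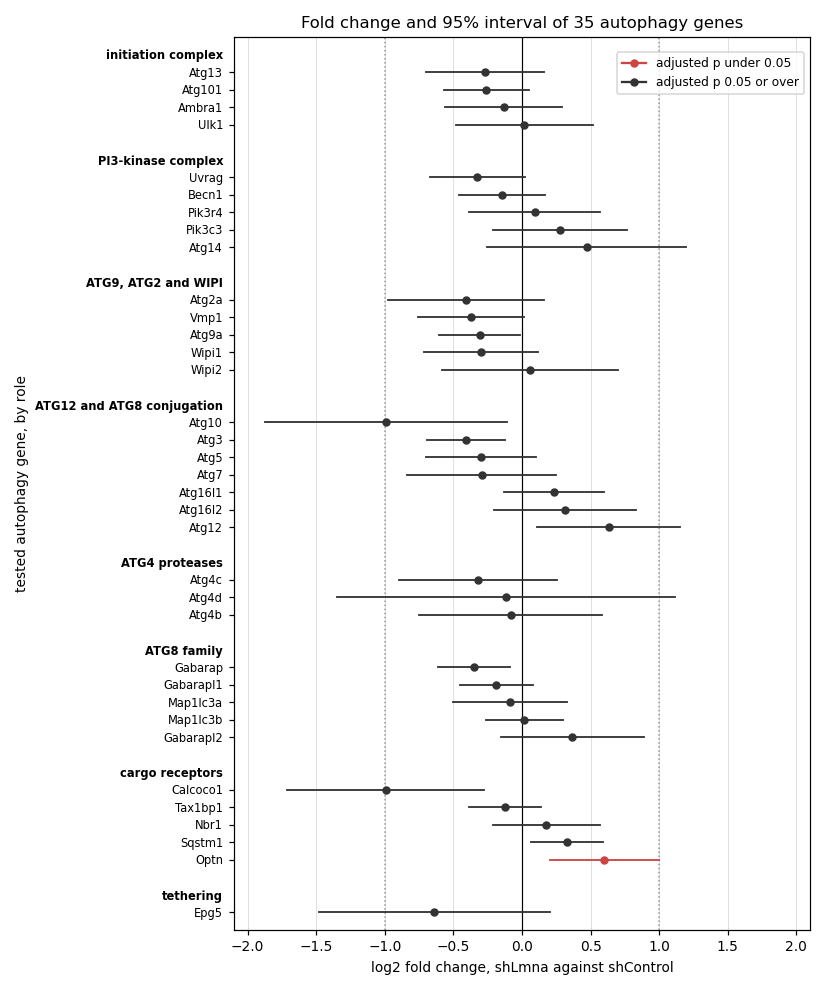
Log2 fold change (shLmna over shControl, x axis) of the 35 tested core autophagy genes, one per line and ordered by role, with bars for the 95% interval from the edgeR fit and dotted lines at a 2-fold change. The points lie between -0.99 and 0.63, and only Optn passed an adjusted p of 0.05.

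The promoters of the set were read for the E-box CACGTG, the core of the letters bound by the MiT/TFE factors (TFEB, TFE3 and the melanocyte factor MITF), which are known activators of autophagy and lysosome genes. RefSeq windows on GRCm38.p6, running from 250 bases before to 50 after a start, were at hand for 33 of the 40 genes. On either strand, CACGTG occurred in a window of 4 of the 33 (12.1%), namely Atg3, Atg5, Atg7 and Atg14, and of 9.17% of all 17224 genes with a window. The longer TCACGTG, which contains CACGTG, occurred in 3 of the 33 (9.09%) and in 5.10% of all. A match of letters is a description and not a binding site. Of the 4 genes with a match, Atg3, Atg5 and Atg7 had negative log2 fold changes and Atg14 a positive one, and none passed the test. The Atg3, Atg14 and Optn windows are printed with each E-box match in capitals (TCACGTG where the longer match was found), the first because it held 2 matches, the second because its match lies at the start itself and the last because Optn was the gene that passed the test. The Atg3 window is chr16:45158579-45158878 on the plus strand, the Atg14 window chr14:47568385-47568684 and the Optn window chr2:5064068-5064367, both on the minus strand.
Atg3: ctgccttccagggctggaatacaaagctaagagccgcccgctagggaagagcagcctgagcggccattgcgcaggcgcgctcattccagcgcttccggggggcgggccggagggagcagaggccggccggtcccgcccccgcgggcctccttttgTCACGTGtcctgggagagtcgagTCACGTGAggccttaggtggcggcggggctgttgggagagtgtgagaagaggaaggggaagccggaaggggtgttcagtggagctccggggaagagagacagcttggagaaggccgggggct
Atg14: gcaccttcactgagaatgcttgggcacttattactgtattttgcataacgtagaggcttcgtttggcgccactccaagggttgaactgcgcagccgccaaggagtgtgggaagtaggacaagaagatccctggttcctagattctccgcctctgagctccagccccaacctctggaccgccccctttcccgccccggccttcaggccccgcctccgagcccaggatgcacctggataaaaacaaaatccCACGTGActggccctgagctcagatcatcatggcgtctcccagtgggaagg
Optn: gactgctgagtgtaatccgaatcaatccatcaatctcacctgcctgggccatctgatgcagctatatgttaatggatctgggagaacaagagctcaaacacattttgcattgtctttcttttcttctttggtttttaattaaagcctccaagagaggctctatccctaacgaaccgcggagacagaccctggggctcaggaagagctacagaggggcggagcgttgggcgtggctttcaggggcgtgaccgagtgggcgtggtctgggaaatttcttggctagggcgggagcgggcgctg
The Optn window held no match, which says only that these letters are not in it.

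**Figure D2:**
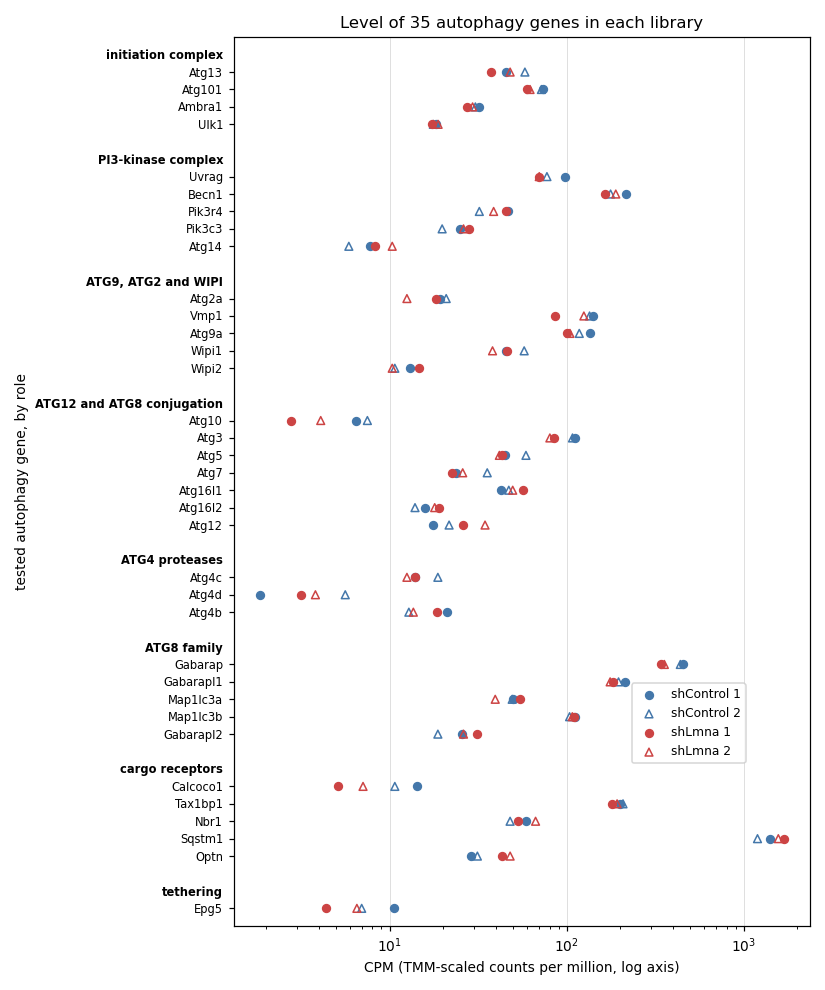
Level in each of the 4 libraries (CPM with normalized library sizes, log scale on the x axis) of the 35 tested core autophagy genes, one per line, with one point per library, blue for shControl and red for shLmna. Sqstm1 lay between 1195 and 1686 CPM. In 23 of the 35 tested genes both shLmna points lay on the same side of both shControl points.

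The initiation complex senses nutrient signals from mTORC1 and AMPK, and 4 of its 6 genes were tested. Ulk1, the kinase that starts autophagy (chr5:110784488-110810097), stood at 18.3 and 17.7 CPM in shControl and at 17.4 and 18.8 in shLmna. The groups overlapped, and the log2 fold change was 0.02 (standard error 0.223, 95% interval -0.48 to 0.51, edgeR adjusted p = 0.976). Atg13, which links ULK1 to the membrane, had 45.2 and 58.1 CPM in shControl and 37.2 and 48.0 in shLmna, again overlapping. Atg101, the partner of ATG13, had 73.7 and 72.0 CPM in shControl and 59.3 and 62.1 in shLmna. Both shLmna values lay below both shControl values, but the log2 fold change of -0.26 did not pass (edgeR adjusted p = 0.242). Ambra1, a scaffold that joins the complex to Beclin 1, had 31.9 and 30.5 CPM in shControl and 27.3 and 29.4 in shLmna, with a log2 fold change of -0.13. No initiation gene reached an unadjusted p of 0.05, and the median log2 fold change of the 4 was -0.20.

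Neither of the other initiation genes was abundant enough to be tested. Rb1cc1, the gene of the scaffold FIP200, had 4 and 3 counts in shControl against 2 and 3 in shLmna. These are too few to read a difference. Ulk2, the paralog of Ulk1, had 4 and 17 counts in shControl against 0 in each shLmna library. With shLmna set to 3 counts per library, the most that a count of 0 allows, the mean shControl level was 2.89-fold higher. This ratio takes the shControl mean as exact and so is no strict bound. Of the 21 Ulk2 counts, 17 came from shControl 2 alone. Ulk2 entered only some of the alternatives, and it passed without the filter on low counts, without shControl 1 and with limma on the ComBat values.

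All 5 genes of the PI3-kinase complex were tested and none passed, even at an unadjusted p of 0.05. Becn1, the gene of the scaffold Beclin 1 (chr11:101285952-101302286), had 216 and 177 CPM in shControl and 165 and 189 in shLmna. The groups overlapped (196.6 ± 27.7 against 177.1 ± 17.3), and the log2 fold change was -0.15 (standard error 0.140, 95% interval -0.46 to 0.17, edgeR adjusted p = 0.527). Other genes share 10.3% of its 3′ end, counted in stretches of 31 bases. Pik3c3, the catalytic subunit VPS34, had 25.1 and 19.8 CPM in shControl and 28.1 and 26.2 in shLmna, not overlapping, with a log2 fold change of 0.27 at an edgeR adjusted p of 0.442. Pik3r4, the regulatory subunit VPS15, had 46.8 and 32.1 CPM in shControl and 45.5 and 38.7 in shLmna, and its groups overlapped.

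ATG14 and UVRAG compete for Beclin 1, the first directing the complex to autophagosome formation and the second to later endosomal steps. Atg14 had 25 and 22 counts in shControl against 21 and 38 in shLmna. On the CPM scale both shLmna libraries were higher, yet the interval of its log2 fold change of 0.47 ran from -0.25 to 1.198. Uvrag had 98.5 and 77.4 CPM in shControl and 70.0 in both shLmna libraries, a log2 fold change of -0.33 at an edgeR adjusted p of 0.192. This gene depended on shControl 2, without which the log2 fold change was -0.50 and passed (edgeR adjusted p = 0.0387).

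The membrane supply genes Atg9a, Atg2a, Wipi1, Wipi2 and Vmp1 were tested, and Atg9b and Atg2b were not. Atg9a, which encodes the membrane protein of the seed vesicles (chr1:75180860-75192196), had 136 and 118 CPM in shControl and 100 and 104 in shLmna. The groups did not overlap (126.7 ± 12.6 against 102.2 ± 3.03), and the log2 fold change of -0.31 (standard error 0.132, 95% interval -0.60 to -0.01) had an unadjusted p of 0.0422 and an edgeR adjusted p of 0.150. All of its 3′ end lies on the same strand as the overlapping model Gm29253, so reads of both could not be separated by sequence and the value is uncertain. Vmp1, a lipid scramblase of the endoplasmic reticulum, had 140 and 135 CPM in shControl and 85.4 and 125 in shLmna, a log2 fold change of -0.37 at an edgeR adjusted p of 0.179. Its shLmna libraries differed from each other by more than shLmna 2 differed from shControl. The last exon of Vmp1 overlaps Mir21a on the same strand, which shares 6.39% of the 3′ end in stretches of 31 bases.

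None of the other genes of this step passed. Atg2a, the lipid transporter, had 19.2 and 20.9 CPM in shControl and 18.2 and 12.5 in shLmna, and Wipi1, which reads the PI3-kinase lipid, had 45.2 and 57.6 against 46.3 and 38.1. Wipi2, which recruits ATG16L1 to that lipid, had 13.0 and 10.7 CPM in shControl and 14.6 and 10.4 in shLmna, with a log2 fold change of 0.06 and an interval of -0.58 to 0.70. Only Atg2a of these 3 had groups that did not overlap. Atg2b had 3 to 5 counts and Atg9b 0 to 2 counts per library.

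Of the 7 conjugation genes, Atg3, Atg10 and Atg12 had an unadjusted p under 0.05 in the edgeR test (42.9%, against 30.1% of all genes) and none had an adjusted one. Atg7, the E1-like enzyme that activates ATG12 and the LC3 proteins (chr6:114643097-114860614), had 23.8 and 35.6 CPM in shControl and 22.5 and 25.9 in shLmna. Its groups overlapped, with a log2 fold change of -0.29 (standard error 0.242, 95% interval -0.84 to 0.25, edgeR adjusted p = 0.454). Atg5, the target of ATG12 (chr10:44268358-44364291), had 44.9 and 58.9 CPM in shControl and 43.1 and 41.7 in shLmna. The groups did not overlap but nearly touched, and the log2 fold change was -0.30 (standard error 0.180, 95% interval -0.70 to 0.10, edgeR adjusted p = 0.305).

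The 2 E2-like enzymes stood lower and ATG12 itself higher in shLmna, all without passing. Atg3, the E2-like enzyme of the LC3 branch, had 112 and 108 CPM in shControl and 85.0 and 80.4 in shLmna. The groups were well apart (109.7 ± 2.55 against 82.71 ± 3.30), and its log2 fold change was -0.41 (standard error 0.128, 95% interval -0.70 to -0.12, edgeR adjusted p = 0.0604). Atg10, the E2-like enzyme of the ATG12 branch, had 21 and 28 counts in shControl against 7 and 15 in shLmna, a log2 fold change of -0.99 whose interval of -1.88 to -0.11 is wide at such counts (edgeR adjusted p = 0.125). Atg12, the ubiquitin-like protein, had 17.7 and 21.7 CPM in shControl and 26.1 and 34.6 in shLmna. That was the most positive log2 fold change of the set, 0.63 with an interval of 0.11 to 1.15 (edgeR adjusted p = 0.0999).

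Atg16l1 and Atg16l2, whose proteins place the ATG12 and ATG5 conjugate on membranes, both had non-overlapping groups with higher shLmna values. Atg16l1 had 42.7 and 47.1 CPM in shControl and 56.6 and 49.6 in shLmna, a log2 fold change of 0.23 at an edgeR adjusted p of 0.372. Atg16l2 had 15.8 and 13.9 against 18.98 and 17.98, a log2 fold change of 0.31 at an edgeR adjusted p of 0.401. The 7 conjugation genes together had a median log2 fold change of -0.29, with 4 below 0 and 3 above.

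ATG4 proteases trim LC3 and GABARAP proteins before lipidation and later release them, and 3 of the 4 were tested. Atg4b had 21.1 and 12.9 CPM in shControl and 18.6 and 13.6 in shLmna, with a log2 fold change of -0.08. Atg4c had 13.9 and 18.7 in shControl and 13.8 and 12.5 in shLmna, a log2 fold change of -0.32 at an edgeR adjusted p of 0.445. Atg4d had 6 and 21 counts in shControl against 8 and 14 in shLmna, and its interval of -1.35 to 1.12 left no direction. None reached an unadjusted p of 0.05. Atg4a was at 0 counts in all 4 libraries, which allows up to 3 counts, or 0.866 CPM on average in shControl and 1.002 CPM in shLmna, and 66.5% of its 3′ end is shared with the pseudogene Atg4a-ps.

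The ATG8 family, the LC3 and GABARAP proteins that coat the autophagosome and bind cargo receptors, was detected in full. Map1lc3b, the gene of LC3B, the usual protein marker of autophagosomes (chr8:121590361-121598760), had 112 and 104 CPM in shControl and 110 and 108 in shLmna. The groups overlapped (107.7 ± 5.39 against 108.8 ± 1.65), and the log2 fold change of 0.01 (standard error 0.125, 95% interval -0.27 to 0.29, edgeR adjusted p = 0.956) bounds the ratio of shLmna to shControl between 0.832 and 1.23. The model Gm20388 overlaps its last exon on the same strand, with 0% of the 3′ end shared in stretches of 31 bases. Map1lc3a had 49.9 and 49.3 CPM in shControl and 54.6 and 39.5 in shLmna, so its shControl values fell between the shLmna ones. The log2 fold change was -0.09.

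The GABARAP branch acts mainly at later steps of autophagosome growth and closure. Gabarapl1 (chr6:129533160-129542346) had 213 and 196 CPM in shControl and 184 and 176 in shLmna. The groups did not overlap (204.8 ± 12.1 against 179.8 ± 5.31), but the log2 fold change of -0.19 did not pass (standard error 0.119, 95% interval -0.46 to 0.08, edgeR adjusted p = 0.329). Gabarap had 452 and 438 CPM in shControl and 341 and 356 in shLmna, well apart, with a log2 fold change of -0.35 and an interval of -0.61 to -0.09 (edgeR adjusted p = 0.0756). Gabarapl2 went the other way, with 25.7 and 18.7 CPM in shControl and 31.2 and 26.2 in shLmna, a log2 fold change of 0.37 at an edgeR adjusted p of 0.332. All 5 family members had intervals within a 2-fold change, and only Gabarap reached an unadjusted p of 0.05.

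The cargo receptors included the gene that passed. Optn (chr2:5020642-5064051), which links ubiquitin-tagged cargo such as damaged mitochondria to LC3, had 93 and 117 counts in shControl against 109 and 176 in shLmna. On the CPM scale these were 28.8 and 31.3 against 43.1 and 48.0, and both shLmna libraries stood above both shControl libraries (30.07 ± 1.78 against 45.53 ± 3.42, SD, n = 2). The log2 fold change was 0.60 (standard error 0.177, 95% interval 0.20 to 0.997, edgeR adjusted p = 0.0478). Its adjusted p rose past 0.05 with DESeq2 (0.303), with a correction for GC content (0.0644) and with counts recovered from the normalized table (0.0502). It also did so without shControl 1 (0.0764), without shLmna 1 (0.139) and without shLmna 2 (0.254), while the log2 fold change stayed positive, at 0.18 to 0.68 over the 12 alternatives.

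Sqstm1, the gene of p62, a receptor that is itself degraded by autophagy (chr11:50199366-50210827), had 4513 and 4465 counts in shControl against 4263 and 5751 in shLmna. Scaled to CPM these were 1398 and 1195 against 1686 and 1567, not overlapping (1297 ± 143 against 1626 ± 84.3). The log2 fold change was 0.33, or 1.25-fold (standard error 0.117, 95% interval 0.07 to 0.59), with an edgeR adjusted p of 0.0923. Without shControl 1 it was 0.45 and passed (edgeR adjusted p = 0.0111), as it did without the filter on low counts (0.0464). Its last exon overlaps Mrnip on the opposite strand.

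Calcoco1, a receptor for endoplasmic reticulum and Golgi, had the most negative value of the set. It had 46 and 40 counts in shControl against 13 and 26 in shLmna, or 14.2 and 10.7 CPM against 5.14 and 7.08. The groups did not overlap, and the log2 fold change was -0.99 with an interval of -1.71 to -0.28 (standard error 0.321, edgeR adjusted p = 0.0679). Without shControl 2 it was -1.19 and passed (edgeR adjusted p = 0.0370), and it also passed with the recovered counts (-1.02, edgeR adjusted p = 0.0459) and without the filter on low counts (0.0305). Tax1bp1, another ubiquitin-binding receptor, had 199.8 and 208 CPM in shControl and 181 and 193 in shLmna, a log2 fold change of -0.13. Nbr1, a partner of p62, had 58.9 and 47.9 against 53.0 and 66.8, overlapping, with a log2 fold change of 0.18. Epg5, whose protein tethers the finished autophagosome to late endosomes and lysosomes, had 34 and 26 counts in shControl against 11 and 24 in shLmna, and the interval of its log2 fold change of -0.64 ran from -1.48 to 0.20.

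The surrounding pathway was read from a list of 59 other autophagy genes, of which 55 were tested. Of these, 10 passed (18.2%, near the 15.2% of all genes), with 5 lower and 5 higher. All 3 limits were met by 8 of the 55, a larger share than the 7.64% of all tested genes. This difference was not tested. The list's median log2 fold change was 0.18, with 38 genes above 0 and 17 below. At an unadjusted p under 0.05 there were 17, or 30.9%, near the 30.1% of all genes. Organelle receptors and mitophagy genes accounted for 5 of the 10, from 12 tested (41.7%).

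Among these receptors, Bnip3 and Bnip3l, close relatives that sit in the outer mitochondrial membrane and bind LC3, moved in opposite directions. Bnip3 (chr7:138890836-138909519) had 40.6 and 47.7 CPM in shControl and 10.3 and 12.0 in shLmna, a log2 fold change of -1.97 (standard error 0.222, edgeR adjusted p = 0.000356). Bnip3l (chr14:66985239-67008877) had 7 and 21 counts in shControl against 61 and 111 in shLmna, or 2.17 and 5.62 CPM against 24.1 and 30.2. Its log2 fold change was 2.77 (standard error 0.361, edgeR adjusted p = 0.000835), and it was 3.63 without shControl 2 and 2.28 without shControl 1. The groups did not overlap in either gene, and both passed in 12 of 12 alternatives.

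Fundc1, a mitochondrial receptor on the X chromosome (chrX:17556564-17572325), had 29.1 and 25.4 CPM in shControl and 9.10 and 8.17 in shLmna. It fell with a log2 fold change of -1.66 (standard error 0.243, edgeR adjusted p = 0.00164), and passed in 12 of 12 alternatives. Fam134b, a receptor for the endoplasmic reticulum (chr15:25843180-25973687), had 56 and 106 counts in shControl against 1 and 2 in shLmna. Its log2 fold change was -5.46, with an interval of -6.59 to -4.34 (edgeR adjusted p = 0.000101). With shLmna set to 3 counts per library, the mean shControl level was 22.8-fold higher. This ratio is no bound, because counts of 1 and 2 allow more than 3. Ccpg1, another receptor of the endoplasmic reticulum, had 56 and 62 counts in shControl against 96 and 104 in shLmna, a log2 fold change of 0.95 at an edgeR adjusted p of 0.0211 that did not pass without shLmna 1 (0.74, edgeR adjusted p = 0.149) or with DESeq2 (adjusted p = 0.118). As 97.8% of its 3′ end is shared with the overlapping model Gm44503, that value is uncertain.

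Upstream of the machinery, 2 of 12 genes of the AMPK and mTORC1 branches passed (16.7%, near the 15.2% of all genes). Prkaa1, the catalytic subunit AMPK alpha 1, had 20.4 and 26.8 CPM in shControl and 57.7 and 52.0 in shLmna. It rose with a log2 fold change of 1.21 (standard error 0.194, edgeR adjusted p = 0.00292). Its groups did not overlap. Rheb, the small GTPase that activates mTORC1, had 235 and 218 CPM in shControl and 111 and 113 in shLmna, and fell with a log2 fold change of -1.02 (standard error 0.120, edgeR adjusted p = 0.000447). Both passed in 12 of 12 alternatives. Ulk1, whose protein is a substrate of AMPK and mTORC1, differed by 0.02 on the log2 scale, as given above.

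The other 3 genes that passed were each sensitive to a library. Trp53inp1, a p53 target that binds LC3, had 1 and 15 counts in shControl against 40 and 52 in shLmna, a log2 fold change of 2.70 (standard error 0.571, edgeR adjusted p = 0.0117). It was 1.89 without shControl 1 and 5.42 without shControl 2, and it did not pass without shLmna 1 (edgeR adjusted p = 0.0882) or without shLmna 2 (0.121). Zkscan3, a transcriptional repressor of autophagy genes, had 20 and 40 counts in shControl against 7 and 6 in shLmna, a log2 fold change of -1.99 (standard error 0.478, edgeR adjusted p = 0.0211). It did not pass without shControl 2 (edgeR adjusted p = 0.113), shLmna 1 (0.0762) or shLmna 2 (0.203), nor with DESeq2 (0.176). Lamp1, a lysosomal membrane protein, had 919.6 and 882 CPM in shControl and 1149 and 1182 in shLmna, a log2 fold change of 0.37 (standard error 0.108, edgeR adjusted p = 0.0448). It did not pass without shControl 2 (edgeR adjusted p = 0.0927), shLmna 1 (0.221) or shLmna 2 (0.242), nor with the GC correction (0.0704).

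Lamp1 belonged to the 15 genes of autophagosome fusion with the lysosome, a step carried out by SNARE proteins, the HOPS tethering complex and Rab7. It was the only one of the 15 to pass (6.67%, against 15.2% of all genes). The median log2 fold change of the 15 was 0.24, with 13 above 0, and in 10 of them both shLmna libraries lay above both shControl libraries, while in 0 they lay below. Over all tested genes, 4568 of 9150 lay above 0, and 29.5% were not overlapping and higher and 30.6% not overlapping and lower. PI3-kinase and phagophore cofactors of the same list also lay mostly above 0 (9 of 11, median 0.35). The transcription factor Mitf, a defining gene of melanocytes, had 137 and 133 CPM in shControl and 99.7 and 109 in shLmna, with a log2 fold change of -0.37 at an edgeR adjusted p of 0.0804. It passed with the GC correction, with the replicate block and with limma on the ComBat values. Tfeb and Tfe3 had groups that overlapped.

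**Figure D3:**
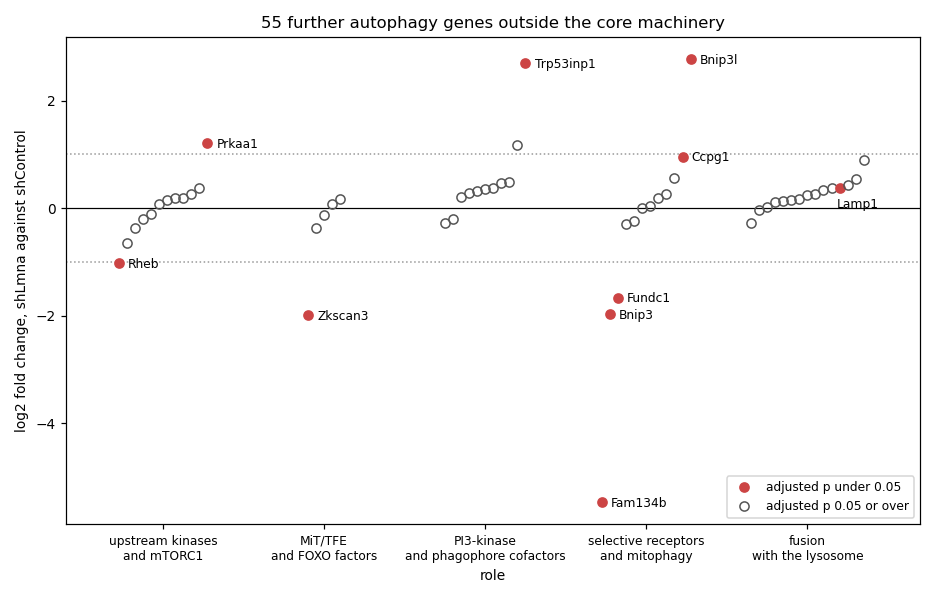
Log2 fold change (shLmna over shControl, y axis) of the 55 tested genes of the surrounding autophagy pathway, by role (x axis), one point per gene, with the 10 that passed an adjusted p of 0.05 filled and named and dotted lines at a 2-fold change. Fam134b is drawn at its fitted value, which is no bound. Fam134b, Bnip3 and Fundc1 lie on the negative side and Bnip3l and Trp53inp1 on the positive side, while 13 of the 15 fusion genes lie above 0. Of all 55 genes, 38 lie above 0.

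In these libraries the share of genes that passed moved with the base composition of the 3′ end. Of the 2661 tested genes at or below 42% GC in the last 1000 bases 27.5% passed, and of the 6439 above 42% GC 10.1% passed. The 35 autophagy genes had a median GC content of 47.8%, from 36.0% to 62.1%, against 46.7% for all tested genes, 39.8% for those that passed lower and 42.8% for those that passed higher. Of the 9 autophagy genes at or below 42% none passed by the edgeR test (2 at an unadjusted p under 0.05), and of the 26 above it 1 passed. The receptors and mitophagy genes of the surrounding list had a lower median, 40.6%, and Bnip3, Fundc1 and Prkaa1 lay at 35.2%, 32.2% and 33.2%. With a correction for GC content in the fit, Fundc1 had a log2 fold change of -1.16 and Prkaa1 of 1.62, and no core autophagy gene passed. The part of base composition in these shares was not tested.

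**Figure D4:**
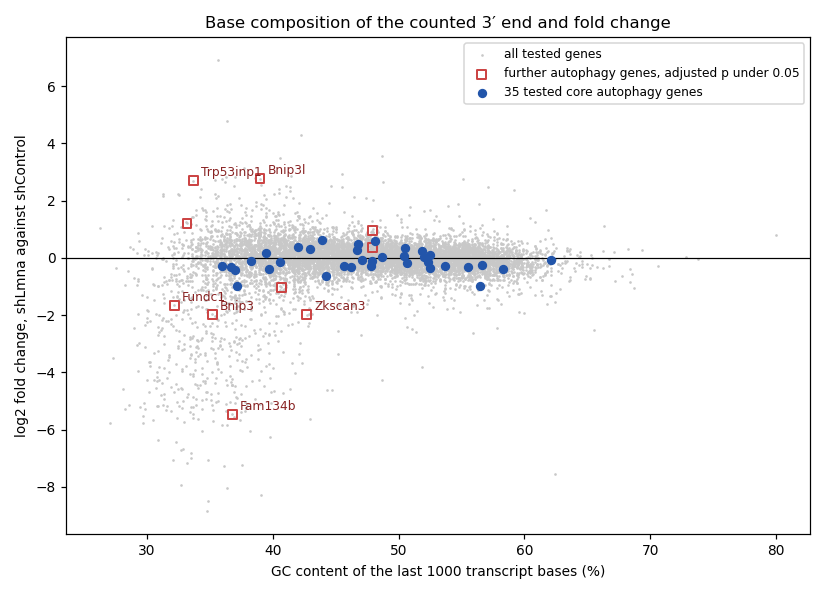
Log2 fold change (shLmna over shControl, y axis) against GC content of the last 1000 bases (percent, x axis) for all tested genes, the 35 tested core autophagy genes (blue) and the 10 other autophagy genes that passed (red squares). The core genes lie between -0.99 and 0.63 across GC contents of 36.0% to 62.1%, and the 10 genes of the surrounding pathway lie between 32.2% and 47.9%.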

How the data were processed

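Bulk MARS-seq counts of 4 libraries (2 shControl, 2 shLmna) were analysed, with groups and numbers taken from the sample titles. Per the study's methods, the authors trimmed reads with Cutadapt, aligned them to mm10 with STAR 2.4.2a and counted them with HTSeq over the last 1000 bases of RefSeq genes and 100 bases downstream, in the UTAP pipeline, with UMI duplicates marked. The authors deposited raw counts per gene symbol, and whether these precede the collapsing of duplicates is not stated. A second deposited table gave a signal per library, the count divided by a size factor, from which counts were recovered (100% of values whole within 0.02 of a step), and the authors' p-values and adjusted p-values, which were not used. Over 10401 genes, the raw counts of each library totalled 1.08 to 1.09 times its recovered counts, with 0 genes lower. Another deposited table held log2 values corrected with ComBat for batches that the sources used here do not name.

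Counts were filtered with filterByExpr, scaled with TMM and tested with edgeR 4.0.16 (quasi-likelihood test, group as the only term, Benjamini-Hochberg adjustment over 9150 genes). The 95% intervals came from the standard error and 9.76 degrees of freedom, of which 2 were residual and the rest borrowed across genes. CPM used TMM library sizes. A gene passed at an adjusted p under 0.05. Bounds used 3 counts per library, which covers counting error at a count of 0 only, and ratios to them take the other group's mean as exact. Positions are from GENCODE on GRCm38, GC content was available for 99.5% of tested genes, and shared sequence was counted in stretches of 31 bases. Alternatives used DESeq2 1.42.0 and limma 3.58.1 besides edgeR. The fit was tested on simulated data. The genes and lists were chosen with earlier results of these data known. All members may be named, with full statistics for those that passed and for Ulk1, Becn1, Atg5, Atg7, Atg9a, Map1lc3b, Gabarapl1 and Sqstm1, and of the other autophagy genes those that passed. Atg101, Uvrag, Atg3, Atg10, Atg12, Gabarap, Calcoco1, Mitf and the other members given with a test value were added after their values were seen.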

Additional observations from a re-analysis of the deposited data

How the results depend on the processing

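Depth limits the genes with few counts, such as Atg10, Atg4d and Epg5, whose intervals reach past 2-fold. With a library left out, the lone library of an arm is assumed to vary like the other group. The targeted gene Lmna passed in all 12 alternatives, and so did 6 genes of the surrounding autophagy list (Bnip3, Bnip3l, Fundc1, Fam134b, Prkaa1 and Rheb). The count of core autophagy genes that passed, 1 of 35 in the main fit, moved with the fit. It was 4 of 39 without the filter on low counts, where 15.0% of all genes passed. It was 0 of the 39 fitted with DESeq2 (7.71% of all) and 11 of 36 with limma on the ComBat values (36.3% of all). With the GC correction it was 0 of 35 (15.2% of all). With recovered counts it was again 1, but the gene was Calcoco1. All genes passed numbered 806 with DESeq2, 3781 with ComBat values and 503 to 2104 with a library left out. Genes meeting all 3 limits were 28 lower and 2 higher with ComBat values, in which fold changes are smaller, 66 higher with DESeq2, and 387 to 750 lower and 60 to 232 higher with a library left out. Core genes meeting them were 1 with recovered counts and 0 to 1 with a library left out. For the other autophagy genes, 26 passed and 0 met the limits with ComBat values, and 6 to 12 passed and 6 to 7 met them with a library left out. The cause of these shifts was not tested.

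Libraries with the same replicate number showed no shared deviation over all genes (correlation of the deviations 0.0129). Whether some genes were paired by replicate number was not tested. With the replicate block 7 of 35 core genes passed, against 22.6% of all 9150 genes (2072). Of the 7, Atg3, Calcoco1, Gabarap and Vmp1 were lower and Atg12, Optn and Sqstm1 higher.

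Log2 fold changes turned sign in 9 core genes, none of which passed. Atg4d was 0.0054 with ComBat values, Map1lc3a 0.10 and Ulk1 -0.025 with the GC correction. With a library left out, Atg4b ranged from -0.41 to 0.31, Atg4d from -0.66 to 0.91, Atg7 from -0.54 to 0.027, Becn1 from -0.29 to 0.0075, Map1lc3a from -0.32 to 0.15, Map1lc3b from -0.040 to 0.068, Pik3r4 from -0.16 to 0.38, Ulk1 from -0.033 to 0.070 and Wipi2 from -0.19 to 0.32. In all, 376 values of the core genes kept direction and side of the threshold, 17 turned sign, and the rest crossed the threshold in either direction.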
